A study of Mus musculus with 9 samples.

Results

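The measurements described here are those of 10 neighbouring genes of mouse chromosome 5: Abcb1a and Abcb1b, which both encode the drug efflux pump P-glycoprotein, and Sri, Dbf4, Slc25a40, Rundc3b, Abcb4, Crot, Tmem243 and Dmtf1, which lie on either side of the pair. Of the 19938 genes that the arrays measured with at least 1 probe set of their own, these 10 are given by 11 probe sets. The locus was chosen by the measured differences of Abcb1a, Abcb1b and Rundc3b between the lines in earlier results of these data, so the differences of these 3 genes are given as a description with no test. The other 7 genes entered by their position next to the pair and were tested in the fit across all genes.

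The cells were 4T1, a carcinoma line from a mouse mammary tumour that grows and spreads in BALB/c mice, with 3 arrays for each of 3 lines. DR500 cells were the survivors of a stepwise selection of 4T1 cells with doxorubicin, an anthracycline that damages DNA, at up to 500 ng/ml. The sample field of the DR500 arrays names methotrexate at that dose, while their treatment protocol and the methods name doxorubicin, which is followed here. MR20 cells were the colonies that survived methotrexate, an inhibitor of dihydrofolate reductase, at 20 µg/ml by the labels (the methods give another mass unit). The MR20 colonies then recovered in medium without drug. The methods of the paper place this recovery after the accounts of both selections, so it is taken to cover DR500 as well. Untreated 4T1 cells were grown in parallel with MR20. The labels describe the RNA of the 4T1 and MR20 wells together and that of the DR500 wells elsewhere, beside 4T1 wells of another name that are not analysed here, so differences in extraction or array batch cannot be told apart from the DR500 line. The titles call the 4T1 and MR20 arrays biological replicates and those of DR500 samples, and the paper's legends speak of biological triplicates for both resistant lines. The labels describe 1 selection for each resistant line and triplicate wells for its arrays, hence p-values measure only the spread between wells, which may be technical. The word resistant follows the names that the paper gives the lines. In its viability assay the inhibitory dose of doxorubicin was no higher for DR500 than for 4T1, and that of methotrexate was higher for both lines.

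P-glycoprotein is an ATP-driven pump of the plasma membrane that carries many hydrophobic drugs out of the cell. Doxorubicin is a classical substrate, whereas methotrexate is mostly carried by other pumps. Mice divide the function of the single human gene between Abcb1a and Abcb1b. In drug-selected rodent and human lines the pump gene is often raised, through new transcription or through extra copies of a stretch of chromosome that can hold its neighbours as well. Copy number was not measured here, and RNA values alone do not separate these routes.

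In the RefSeq order of assembly GRCm38.p6 the genes run Sri, Dbf4, Slc25a40, Rundc3b, Abcb1a, Abcb1b, Abcb4, Crot, Tmem243 and Dmtf1, with Adam22 between Sri and Dbf4. The annotations of Rundc3b and Abcb1a overlap on opposite strands, and Dbf4 and Slc25a40 start next to each other and are read in opposite directions. The 250 bases upstream of the annotated start of each gene were read from RefSeq for all 10 genes, and 6 are shown because the values below set these genes apart. Abcb1a and Abcb1b are the pump genes, and the annotated start of Rundc3b lies between theirs on the other strand. Dbf4 and Slc25a40 share 121 bases of their windows. Among neighbours whose line means spanned at least 1 on the log2 scale, Crot correlated most with Abcb1b over the arrays. The windows lie at chr5:8566841-8567090 on the plus strand for Abcb1a, chr5:8797897-8798146 on the plus strand for Abcb1b, chr5:8622953-8623202 on the minus strand for Rundc3b, chr5:8422717-8422966 on the minus strand for Dbf4, chr5:8422588-8422837 on the plus strand for Slc25a40 and chr5:8997147-8997396 on the minus strand for Crot. Capitals mark a CCAAT box (CCAAT) or a GC box (GGGCGG), each on either strand.
Abcb1a: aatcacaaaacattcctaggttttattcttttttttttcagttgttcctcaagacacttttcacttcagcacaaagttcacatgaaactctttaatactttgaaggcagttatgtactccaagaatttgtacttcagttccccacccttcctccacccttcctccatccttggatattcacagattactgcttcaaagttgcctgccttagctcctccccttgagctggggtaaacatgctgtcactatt
Abcb1b: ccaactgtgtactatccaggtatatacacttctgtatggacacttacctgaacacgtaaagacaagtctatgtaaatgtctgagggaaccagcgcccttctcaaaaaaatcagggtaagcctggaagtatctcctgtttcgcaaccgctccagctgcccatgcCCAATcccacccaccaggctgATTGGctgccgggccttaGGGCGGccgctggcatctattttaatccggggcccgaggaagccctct
Rundc3b: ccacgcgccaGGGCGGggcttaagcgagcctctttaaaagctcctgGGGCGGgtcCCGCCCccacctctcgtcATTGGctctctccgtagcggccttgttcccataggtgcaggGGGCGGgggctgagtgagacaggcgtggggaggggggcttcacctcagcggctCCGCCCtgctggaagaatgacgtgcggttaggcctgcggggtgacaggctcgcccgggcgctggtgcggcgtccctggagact
Dbf4: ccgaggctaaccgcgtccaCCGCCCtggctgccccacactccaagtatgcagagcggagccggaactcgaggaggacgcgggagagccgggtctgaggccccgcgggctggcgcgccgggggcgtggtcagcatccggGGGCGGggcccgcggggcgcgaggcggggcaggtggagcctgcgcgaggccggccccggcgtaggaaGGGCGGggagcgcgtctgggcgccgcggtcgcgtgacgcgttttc
Slc25a40: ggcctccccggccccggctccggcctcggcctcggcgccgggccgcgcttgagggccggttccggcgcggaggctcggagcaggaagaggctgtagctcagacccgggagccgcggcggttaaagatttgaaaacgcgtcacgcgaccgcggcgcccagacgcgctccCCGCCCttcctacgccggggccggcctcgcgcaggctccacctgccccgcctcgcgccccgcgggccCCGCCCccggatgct
Crot: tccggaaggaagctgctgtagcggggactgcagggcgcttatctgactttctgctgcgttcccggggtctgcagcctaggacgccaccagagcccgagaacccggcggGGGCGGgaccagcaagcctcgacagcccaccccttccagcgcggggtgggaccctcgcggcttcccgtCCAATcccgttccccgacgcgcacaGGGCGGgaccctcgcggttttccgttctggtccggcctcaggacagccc

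The windows at the annotated starts of the pump genes differed in these letters. A single start was read for each gene, and which starts these cells use was not measured. The Abcb1b window held 2 CCAAT boxes, at -87 to -83 and -66 to -62 from the start, and 1 GC box at -48 to -43, in 52.8% GC. The Abcb1a window held neither, in 40.4% GC. CCAAT was present in 33.8% and GGGCGG in 32.7% of all 32851 upstream windows of the same length, whose median GC content was 52.4%. Rundc3b had 1 CCAAT box and 5 GC boxes in 69.2% GC, Crot 1 and 2, Dbf4 3 GC boxes and Slc25a40 2. Among the windows not printed, Abcb4 held 1 CCAAT box and 1 GC box, Tmem243 2 and 1, Dmtf1 1 GC box and Sri neither. None of the 10 windows held TGACTCA, the core letters of an AP-1 element (4.46% of all windows), or TATAAA (12.4%), on either strand. A match of letters describes the sequence only and is no measured binding site.

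All values below are log2 array signals as deposited, after robust multi-array normalization, so that a difference of 1 is a 2-fold difference. The median of all values was 6.32, and a gene with a mean below it is called dim. Signals of different genes depend on their probes and are not set against each other. The line means with SD, differences with standard error (SE) and adjusted p-values came from one limma fit of the 9 arrays, with Benjamini-Hochberg adjustment over all 19938 genes and a threshold of 0.05.

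Both pump genes were highest in DR500, intermediate in 4T1 and lowest in MR20, with no overlap between the lines. Abcb1b had 11.33, 11.41 and 11.36 in DR500, 8.63, 8.60 and 8.56 in MR20, and 10.05, 10.05 and 10.04 in 4T1. The difference from 4T1 was 1.32 ± 0.05 (SE) in DR500, 2.5-fold higher, and -1.45 ± 0.05 in MR20, 2.73-fold lower. DR500 therefore stood 2.77 ± 0.05 above MR20, a 6.82-fold difference. Abcb1a had 7.78, 8.25 and 8.22 in DR500, 6.0, 5.92 and 5.99 in MR20, and 6.81, 6.86 and 6.78 in 4T1. It was 2.40-fold higher in DR500 and 1.80-fold lower in MR20 than in 4T1 (1.27 ± 0.11 and -0.85 ± 0.11), and the MR20 values lay below the median of all values. Whether probes of one pump gene also detect transcripts of the other was not tested.

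Rundc3b, a RUN domain protein gene whose annotated start lies between those of the pump genes, did not share this order. It had 7.64, 7.84 and 8.09 in DR500, 5.87, 5.73 and 5.47 in MR20, and 7.72, 7.85 and 7.89 in 4T1. The DR500 and 4T1 arrays overlapped, whereas every MR20 array was lower and below the median of all values. MR20 was 4.37-fold lower than 4T1 (-2.13 ± 0.13, the steepest fall among the 10 genes), and DR500 differed from 4T1 by 0.04 ± 0.13, an amount smaller than its error whose sign changed when 1 array was left out.

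**Figure D1:**
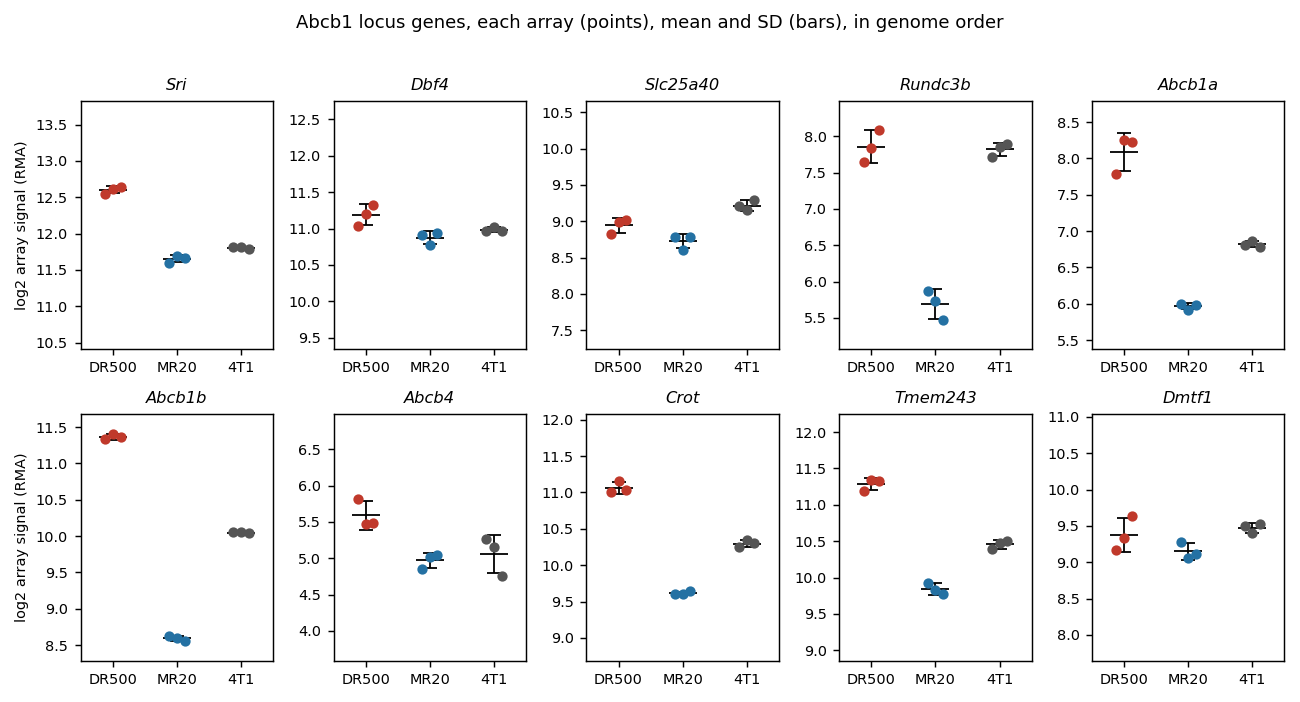
Log2 array signal (y axis; each panel has its own origin and the same span) of the 10 genes in genome order, for the 3 arrays (points) of DR500, MR20 and 4T1 (x axis), with mean and SD (bars). DR500 lies highest and MR20 lowest without overlap for Sri, Dbf4, Abcb1a, Abcb1b, Crot and Tmem243, whereas DR500 and 4T1 overlap for Rundc3b and Dmtf1.

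Of the 7 genes that entered by position, 4 were lower in MR20 than in 4T1 and 0 were higher, where 17.1% of all genes passed the test as lower and 15.4% as higher. In DR500 against 4T1, 4 were higher and 1 was lower, against 20.2% and 21.3% of all genes. In DR500 against MR20, 6 were higher and 0 lower, against 21.2% and 20.6%. Of chromosome 5 genes above the median of all values, 47.2% were lower and 7.57% higher in MR20 than in 4T1. In DR500 against 4T1, 42.8% of them were lower and 18.4% higher. The median difference of the 7 genes was -0.33 in MR20 and 0.53 in DR500 against 4T1, and 0.62 between DR500 and MR20, where the medians of all genes were -0.01, 0.07 and 0.07. Both comparisons with 4T1 use the same 3 control arrays, and the direction of the 2 is therefore not independent. The split over all genes in DR500 against 4T1, 4034 higher and 4239 lower, moved with the scaling: it was 5886 and 3601 with arrays centred on their median and 6096 and 3773 with a repeated quantile normalization.

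The order DR500 above 4T1 above MR20 with no overlap of arrays held for 4 of these 7 genes, Sri, Dbf4, Crot and Tmem243. Among all genes it held for 956, or 4.79%.

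On the far side of Abcb4, Crot and Tmem243 came closest to the pump genes. Crot encodes the peroxisomal carnitine octanoyltransferase, which moves medium-chain acyl groups onto carnitine so that they can leave the peroxisome. It had 11.003, 11.161 and 11.032 in DR500, 9.61, 9.61 and 9.64 in MR20, and 10.25, 10.34 and 10.30 in 4T1. Crot was 1.7-fold higher in DR500 than in 4T1 (0.77 ± 0.06, adjusted p = 2.71e-06) and 1.60-fold lower in MR20 than in 4T1 (-0.67 ± 0.06, adjusted p = 1.52e-05), so that DR500 was 2.72-fold above MR20 (1.44 ± 0.06, adjusted p = 2.21e-08). Tmem243, a gene for a small membrane protein, had 11.19, 11.34 and 11.33 in DR500, 9.93, 9.83 and 9.77 in MR20, and 10.39, 10.48 and 10.50 in 4T1. Its differences were nearly those of Crot: 1.78-fold higher in DR500 (0.83 ± 0.07, adjusted p = 3.88e-06), 1.53-fold lower in MR20 (-0.61 ± 0.07, adjusted p = 6.64e-05) and 2.73-fold between DR500 and MR20 (1.45 ± 0.07, adjusted p = 5.67e-08).

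Abcb4, the gene directly beside Abcb1b, encodes the transporter that brings phosphatidylcholine into bile and belongs to the same subfamily as the pumps. It had 5.82, 5.47 and 5.48 in DR500, 4.85, 5.02 and 5.04 in MR20, and 5.26, 5.15 and 4.76 in 4T1. All 9 values lay below the median of all values, and the MR20 and 4T1 arrays overlapped (-0.09 ± 0.14, adjusted p = 0.726). The DR500 arrays were above both other lines, by 0.53 ± 0.14 over 4T1 (adjusted p = 0.00917) and 0.62 ± 0.14 over MR20 (adjusted p = 0.00376). At so low a signal the size of a change in RNA cannot be read from the log2 difference.

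Dmtf1, the last of the genes, encodes a cyclin D-binding Myb-like factor that activates the Arf tumour suppressor gene. It had 9.17, 9.33 and 9.63 in DR500, 9.28, 9.06 and 9.11 in MR20, and 9.50, 9.40 and 9.52 in 4T1. The DR500 arrays overlapped those of both other lines and did not pass the test against either (-0.10 ± 0.11, adjusted p = 0.504 against 4T1, and 0.23 ± 0.11, adjusted p = 0.124 against MR20). MR20 was 1.25-fold lower than 4T1 (-0.33 ± 0.11, adjusted p = 0.0438), a call close to the threshold that was lost in 9 of 17 alternatives, among them those without any 1 of the 4T1 arrays, MR20 replicates 2 and 3 or DR500 replicate 2 (log2 differences of -0.28 to -0.36, adjusted p = 0.0616 to 0.145).

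On the other side of the pair, Sri was higher in DR500 than in either other line. It encodes sorcin, a calcium-binding protein of the penta-EF-hand family that acts on calcium release in muscle and other cells and that is known to be amplified with the pump gene in some multidrug-resistant hamster lines. Sri had 12.55, 12.62 and 12.64 in DR500, 11.60, 11.69 and 11.67 in MR20, and 11.81, 11.82 and 11.79 in 4T1. DR500 was 1.74-fold above 4T1 (0.80 ± 0.05, adjusted p = 1.22e-06) and 1.93-fold above MR20 (0.95 ± 0.05, adjusted p = 2.69e-07). The MR20 arrays were all below those of 4T1, by 0.10 at their nearest, and the difference of -0.15 ± 0.05 did not pass the test (adjusted p = 0.0539), although it passed in 4 of 17 alternatives, 1 of them without DR500 replicate 1 (adjusted p = 0.0378).

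Dbf4 and Slc25a40, whose upstream sequences overlap, gave different calls. Dbf4 encodes the regulatory subunit of the Cdc7 kinase, which starts DNA replication at licensed origins. It had 11.04, 11.20 and 11.33 in DR500, 10.91, 10.77 and 10.94 in MR20, and 10.96, 11.02 and 10.97 in 4T1. The lines did not overlap, but neither resistant line passed the test against 4T1 (0.21 ± 0.08, adjusted p = 0.0605 in DR500, and -0.11 ± 0.08, adjusted p = 0.375 in MR20), while DR500 passed it against MR20 (0.32 ± 0.08, adjusted p = 0.00811). The first of these passed in 5 of 17 alternatives, at 0.28 (adjusted p = 0.011) without DR500 replicate 1. Slc25a40, a carrier of the mitochondrial inner membrane, had 8.82, 8.99 and 9.02 in DR500, 8.78, 8.61 and 8.79 in MR20, and 9.21, 9.15 and 9.29 in 4T1. It was lower than 4T1 in both resistant lines, 1.21-fold in DR500 (-0.27 ± 0.08, adjusted p = 0.0165) and 1.40-fold in MR20 (-0.49 ± 0.08, adjusted p = 0.000673), and it was the only one of the 7 genes that passed the test as lower in DR500. DR500 exceeded MR20 by 0.22 ± 0.08 (adjusted p = 0.0435), a call that was lost in 12 of 17 alternatives, among them those without any 1 array other than DR500 replicate 1 (adjusted p = 0.0512 to 0.156). The call against 4T1 in DR500 was lost without 4T1 replicate 3 (adjusted p = 0.0672) or DR500 replicate 1 (adjusted p = 0.0508). A dimmer probe set of Slc25a40 read 6.77, 7.36 and 7.53 in DR500, 7.20, 7.14 and 7.12 in MR20, and 7.74, 7.62 and 7.61 in 4T1, where the DR500 and MR20 arrays overlap and both stay below 4T1. The difference between Dbf4 and Slc25a40 in a comparison was not tested.

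Ordered by the difference from 4T1, the 10 genes in DR500 ran Abcb1b, Abcb1a, Tmem243, Sri, Crot, Abcb4, Dbf4, Rundc3b, Dmtf1 and Slc25a40. Abcb1b and Abcb1a (1.32 and 1.27) lay within 1 SE of each other, as did Tmem243, Sri and Crot (0.83, 0.80 and 0.77). In MR20 the order from the lowest was Rundc3b, Abcb1b, Abcb1a, Crot, Tmem243, Slc25a40, Dmtf1, Sri, Dbf4 and Abcb4, in which Crot and Tmem243 (-0.67 and -0.61) and the last 3 (-0.15, -0.11 and -0.09) do not differ beyond their errors.

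The genes beyond the 10 were described in the same way. A window of 15 measured genes on each side of the pump pair held 32 genes, of which 22 are not among the 10 genes. Counting the 29 that did not lead to the choice of the locus, 2 were higher and 11 lower in MR20 than in 4T1, 9 higher and 5 lower in DR500 than in 4T1, and 16 higher and 3 lower in DR500 than in MR20. As shares this is 6.9% and 37.9% in MR20 (15.4% and 17.1% of all genes), 31.0% and 17.2% in DR500 (20.2% and 21.3%), and 55.2% and 10.3% between DR500 and MR20 (21.2% and 20.6%). Many of the 29 were dim: 14 had a mean above the median of all values. Of these 14, 1 was higher and 10 lower in MR20, 7 higher and 2 lower in DR500, and 13 higher and 0 lower in DR500 against MR20, with median differences of -0.49, 0.49 and 1.05. Among all 11442 genes above that median, 24.5% were higher and 27.6% lower in MR20, 28.1% and 34.5% in DR500, and 28.7% and 33.4% in DR500 against MR20.

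Beyond Sri and Dmtf1 some genes differed in the same way and others did not. Of the 22 genes outside the 10, 2 were higher and 7 lower in MR20 than in 4T1. These are 9.09% and 31.8%, beside 15.4% and 17.1% of all genes. Against 4T1, 5 were higher and 4 lower in DR500 (22.7% and 18.2%), near the 20.2% and 21.3% of all genes. Against MR20, 10 were higher and 3 lower in DR500 (45.5% and 13.6%, beside 21.2% and 20.6%). Beyond Dmtf1, Elapor2 was 1.83-fold higher in DR500 than in 4T1 (0.87 ± 0.08, adjusted p = 7.86e-06) and 1.33-fold lower in MR20 than in 4T1 (-0.41 ± 0.08, adjusted p = 0.00212), although its mean of 5.21 was below the median of all values. Beyond Sri, the first measured gene was Steap4, a metalloreductase gene, and it was far higher than 4T1 in both resistant lines: its line means were 11.68 ± 0.016 in DR500, 9.52 ± 0.109 in MR20 and 6.55 ± 0.020 in 4T1 (SD, n = 3 each), differences of 5.13 ± 0.06 and 2.97 ± 0.06 (adjusted p = 3.08e-11 and 8.93e-10). Farther out, its relatives Steap1 and Steap2 followed the pump genes in order. Steap2 was 0.79 ± 0.06 above 4T1 in DR500 and -0.50 ± 0.06 in MR20, and Steap1 0.82 ± 0.09 and -0.37 ± 0.09, each past the test. Cdk14, a cyclin-dependent kinase gene at the edge of the window, read 0.89 ± 0.07 in DR500 and -0.51 ± 0.07 in MR20, also past the test in both. Cldn12, a claudin gene, was 2.03-fold lower in MR20 than in 4T1 (-1.02 ± 0.06, adjusted p = 6.02e-07), and Gtpbp10 (-0.78 ± 0.08) and Cfap69 (-1.13 ± 0.16) fell there too. In DR500 Cldn12 did not pass the test against 4T1 (0.12 ± 0.06, adjusted p = 0.124), nor did Cfap69 (-0.21 ± 0.16, adjusted p = 0.325), and Gtpbp10 was lower (-0.31 ± 0.08, adjusted p = 0.00931).

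Past Elapor2 most genes were dim. The dim semaphorin genes Sema3a and Sema3c, whose proteins guide axons and migrating cells, were lower in DR500 than in 4T1 by -0.78 ± 0.12 and -1.39 ± 0.08 (adjusted p = 0.000294 and 2.55e-07), as was Speer3 (-0.59 ± 0.12, adjusted p = 0.00237). In MR20, Sema3c was higher (0.58 ± 0.08, adjusted p = 0.000229), while Sema3a (-0.17 ± 0.12, adjusted p = 0.352) and Speer3 (-0.20 ± 0.12, adjusted p = 0.268) did not pass the test. Sema3e, the only gene past Elapor2 with a mean above the median of all values, was 0.20 ± 0.06 higher in DR500 than in MR20 (adjusted p = 0.0266) and passed neither test against 4T1. Adam22, between Sri and Dbf4, read -0.06 ± 0.10 in MR20 and 0.24 ± 0.10 in DR500 at a mean of 3.92, and passed neither test against 4T1. Its difference between DR500 and MR20 passed the test near the threshold (0.30 ± 0.10, adjusted p = 0.0422), although the gene is dim.

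**Figure D2:**
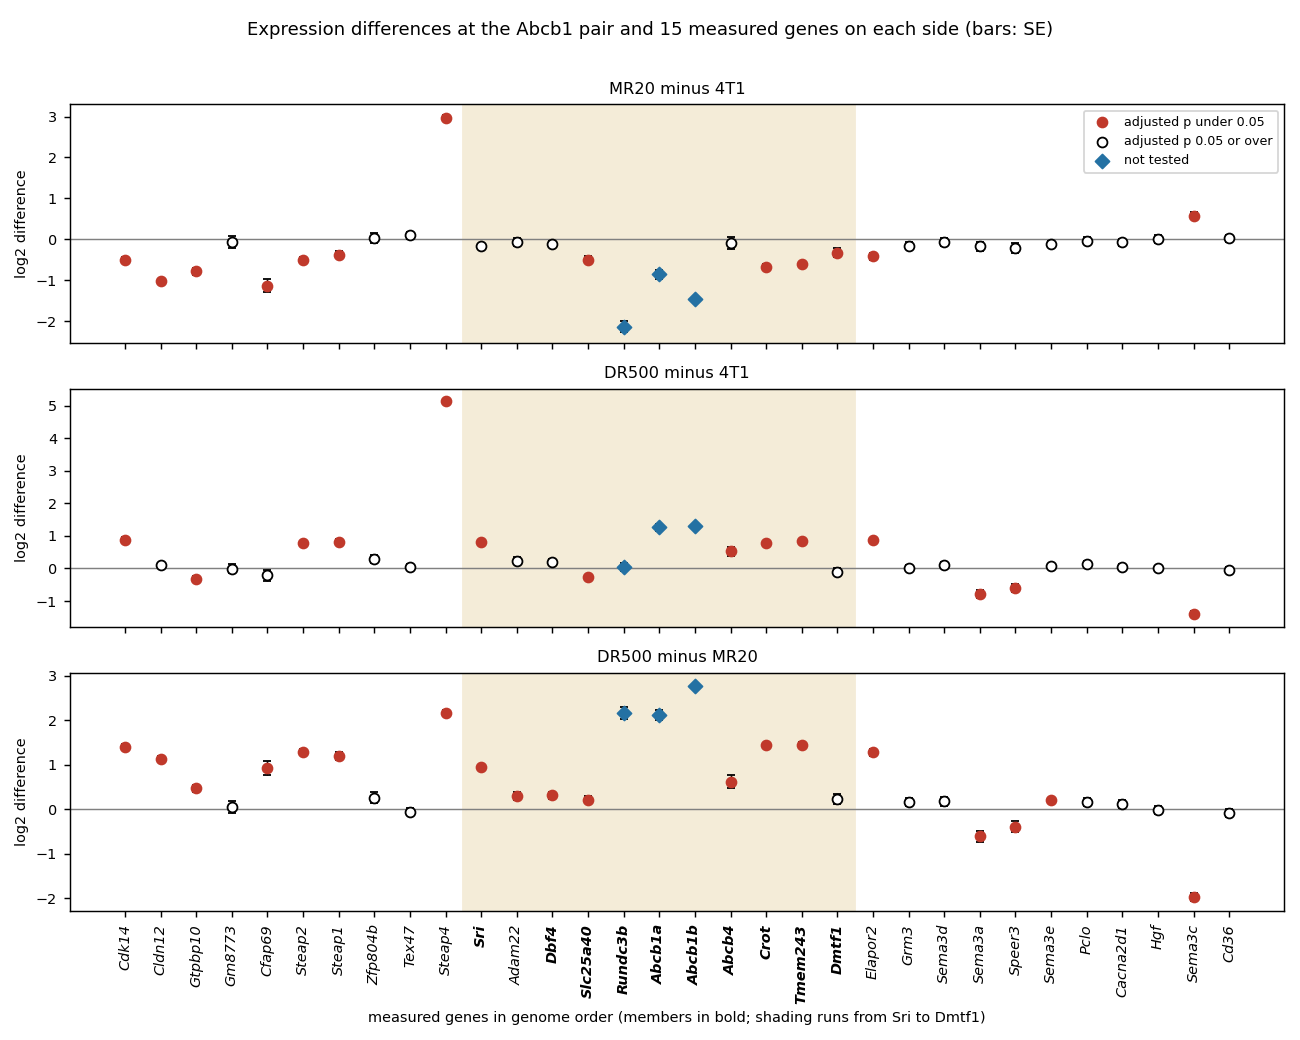
Log2 differences with SE (y axis) for MR20 minus 4T1, DR500 minus 4T1 and DR500 minus MR20 at 32 measured genes in genome order (x axis; the 10 genes in bold, shading from Sri to Dmtf1), with red circles past the test, white circles not past it and blue diamonds not tested. Between Cdk14 and Elapor2 most differences of DR500 minus MR20 lie above 0, up to 2.77 at Abcb1b, and Sema3c at -1.97 lies below.

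The wider chromosome had a shift of its own. Outside the window, 723 genes of chromosome 5 had a mean above the median of all values, and of these 55 were higher and 336 lower in MR20 than in 4T1 (7.61% and 46.5%), with a median difference of -0.19. In DR500, 127 were higher and 315 lower (17.6% and 43.6%, median -0.13). Lower values in MR20 were thus common along the whole chromosome, and how far this accounts for those at the locus was not tested. Between DR500 and MR20 the rest of the chromosome was nearly even, with 200 higher and 203 lower and a median of 0.02. A running median over 11 neighbouring genes was -0.61 at Abcb1b in MR20 against 4T1, where it ranged between -0.68 and 0.28 over 730 positions and was lower at 3 of them. In DR500 against 4T1 it was 0.21 at Abcb1b, in a range between -0.75 and 0.80, and higher at 32 positions. In DR500 against MR20 it was 0.95, in a range between -0.91 and 1.44, and higher at 7 positions. Adjacent positions share genes. Abcb1a, Abcb1b and Rundc3b, whose values led to the choice of the locus, enter the medians at and near Abcb1b. The rank of the locus is therefore a description and no test.

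**Figure D3:**
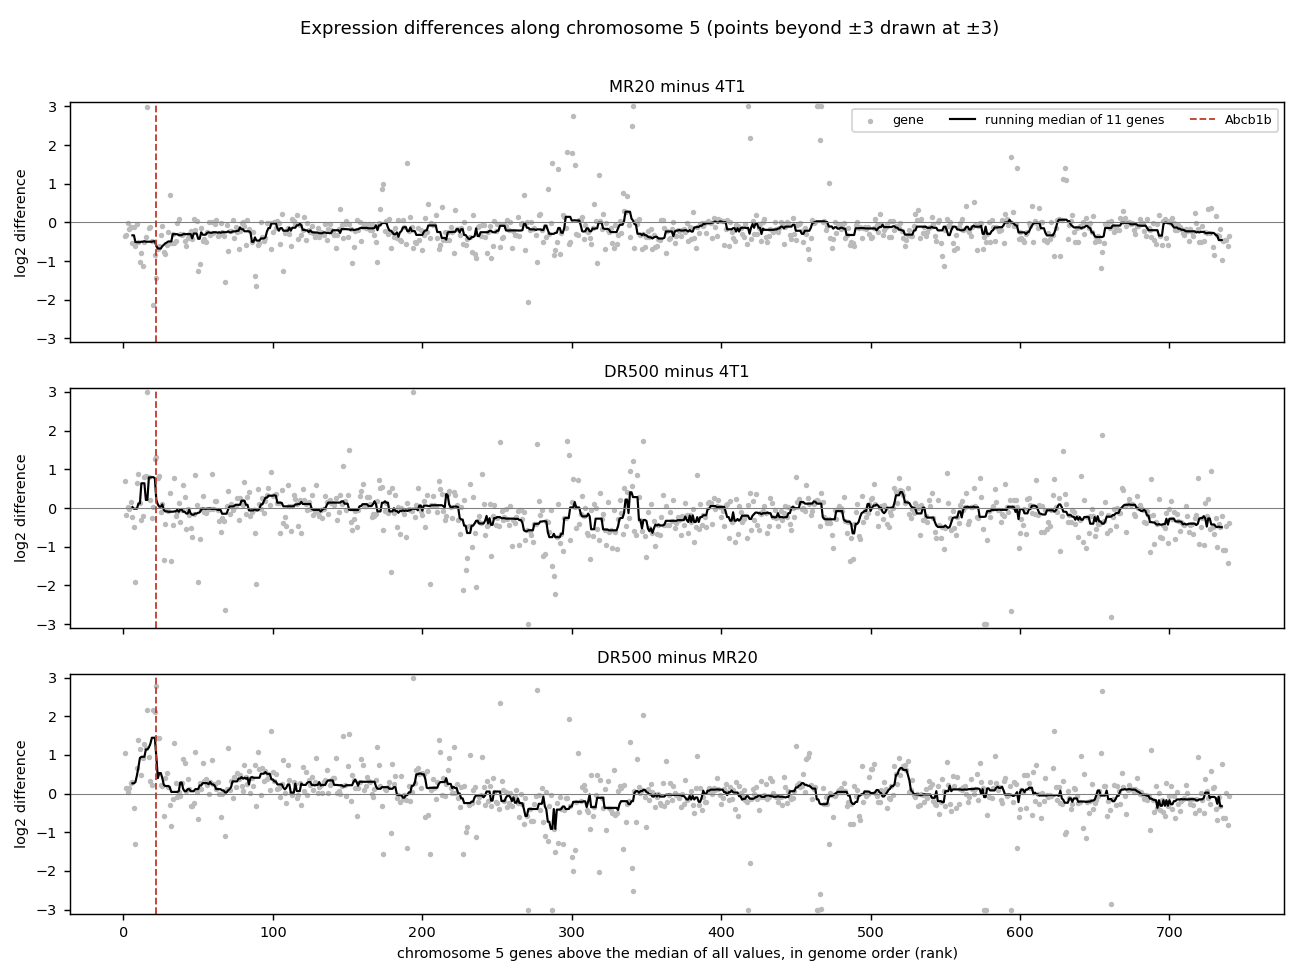
Log2 difference (y axis) of 740 chromosome 5 genes above the median of all values (grey points) against their rank in genome order (x axis), with the running median of 11 genes (black line) and the place of Abcb1b (red dashed line). Near Abcb1b the line reaches 1.44 in DR500 minus MR20, its highest value on the chromosome, and -0.68 in MR20 minus 4T1, its lowest. Abcb1a, Abcb1b and Rundc3b, whose values led to the choice of the locus, enter both of these medians.

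Genes with the same pattern over the 9 arrays were found on other chromosomes. Among the 1778 genes whose line means spanned at least 1, the 5 with the highest Pearson correlation to Abcb1b were Slc39a14 (0.9992), Faah (0.9991), Cmbl (0.9984), Papln (0.9981) and Efna5 (0.9976). Of the neighbours that spanned this much, Crot ranked 15, Tmem243 45 and Steap2 70, and Abcb1a itself ranked 91 at 0.9816. Sri, Dbf4, Slc25a40, Abcb4 and Dmtf1 spanned less than 1 and were not ranked. The 9 points form 3 clusters, 1 per line, so that these correlations mainly compare the order and spacing of the line means. For Rundc3b the first 5 were Eomes (0.9942), Arsa (0.9942), Dcaf6 (0.9935), Mtmr11 (0.9933) and Adk (0.9928), with Cldn12 at rank 22 and Abcb1b at rank 139.

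Other drug efflux pump genes were counted as well. Of 11 measured pump genes outside the locus, 5 were higher and 0 lower in DR500 than in 4T1, and 3 were higher and 3 lower in MR20, with medians of 0.16 and -0.01. The shares over all genes were 20.2% higher and 21.3% lower in DR500 and 15.4% and 17.1% in MR20, so that the MR20 count lay within a few genes of them. Most of the 11 had a mean above the median of all values. Among all such genes 28.1% were higher and 34.5% lower in DR500, and 24.5% and 27.6% in MR20. Abcg2, the breast cancer resistance protein, which carries methotrexate among other substrates, was higher in both lines, by 1.12 ± 0.11 in DR500 (adjusted p = 2.02e-05) and 2.84 ± 0.11 in MR20 (adjusted p = 5.66e-08), where both Abcb1 genes were low. Abcc4, another organic anion pump, rose in DR500 (1.25 ± 0.07, adjusted p = 2.39e-07) and read -0.06 ± 0.07 in MR20 (adjusted p = 0.607). Abcc5 rose by 0.48 ± 0.08 in DR500 and 0.30 ± 0.08 in MR20, and Abca3 fell by 0.27 on the log2 scale in MR20. The count of 6 in MR20 was fragile and went down to 2 without MR20 replicate 2. That of 5 in DR500 went down to 3 without 4T1 replicate 3.

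Of 25 measured genes that encode published regulators of Abcb1 transcription, 15 were higher and 2 lower in DR500 than in 4T1, and 6 were higher and 2 lower in MR20, with medians of 0.22 and 0.05. This is 60.0% higher and 8.0% lower in DR500, beside 20.2% and 21.3% of all genes and 28.1% and 34.5% of genes above the median of all values, and 24.0% and 8.0% in MR20, beside 15.4% and 17.1% of all genes and 24.5% and 27.6% of genes above that median. The largest changes in DR500 were those of Cebpb (1.15 ± 0.06, adjusted p = 2.02e-07), the AP-1 subunit gene Fos (1.04 ± 0.06, adjusted p = 3.65e-07) and Nfe2l2, the gene of the oxidative stress factor Nrf2 (0.86 ± 0.05, adjusted p = 6.96e-07). In MR20 they were those of Fos (0.67 ± 0.06, adjusted p = 1.82e-05), the acetyltransferase gene Ep300 (0.48 ± 0.06, adjusted p = 0.000263) and Twist1 (0.42 ± 0.06, adjusted p = 0.000351). Ep300 (0.51 ± 0.06) and Twist1 (0.47 ± 0.06) were higher than 4T1 in DR500 as well. Of the genes for the CCAAT-binding factor NF-Y, Nfyc was higher (0.66 ± 0.05) and Nfyb lower (-0.46 ± 0.08) in DR500, and Nfya read -0.01 ± 0.07.

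The partners of the neighbouring genes were counted as well. Of 29 genes for the licensing and firing of replication origins, the process of Dbf4, 6 were higher and 10 lower in DR500 and 5 higher and 11 lower in MR20. Cdc7, the kinase that Dbf4 activates, was lower in both (-0.60 ± 0.09, adjusted p = 0.000283 in DR500 and -0.70 ± 0.09, adjusted p = 0.000173 in MR20). Gins2 of the replicative helicase (-0.80 ± 0.11 in DR500 and -0.82 ± 0.11 in MR20) and Orc6 of the origin recognition complex (-0.70 ± 0.06 and -0.63 ± 0.06) fell as well, and Clspn rose in DR500 (0.63 ± 0.09). Of 20 measured genes of peroxisomal fatty acid oxidation, where Crot acts, 8 were higher and 5 lower in DR500 and 2 higher and 8 lower in MR20. Scp2, a lipid carrier and thiolase gene, rose in DR500 (1.21 ± 0.08), while the branched-chain oxidase gene Acox2 (-1.70 ± 0.08) and the import receptor gene Pex7 (-1.19 ± 0.13) fell. In MR20, Eci2 rose (0.62 ± 0.08) and Decr2 (-0.59 ± 0.06) and Pex7 (-0.51 ± 0.13) fell. Of 16 relatives and partners of sorcin, 4 were higher and 2 lower in DR500 and 5 higher and 0 lower in MR20. Grancalcin, the close relative of sorcin encoded by Gca, was lower in DR500 (-2.92 ± 0.11, adjusted p = 1.14e-08) and higher in MR20 (0.65 ± 0.11, adjusted p = 0.000812). The calpain genes Capn2 (0.60 ± 0.06 in DR500 and 0.40 ± 0.06 in MR20) and Capns1 (0.44 ± 0.06 in DR500) and, in MR20, Pdcd6 (0.39 ± 0.06) were higher. Of all genes, 20.2% were higher and 21.3% lower in DR500 and 15.4% and 17.1% in MR20. Among genes above the median of all values, 28.1% were higher and 34.5% lower in DR500 and 24.5% and 27.6% in MR20. All origin genes had a mean above that median, and 34.5% of them were lower in DR500 and 37.9% in MR20. The DR500 count of lower origin genes thus equals the share among such genes.

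**Figure D4:**
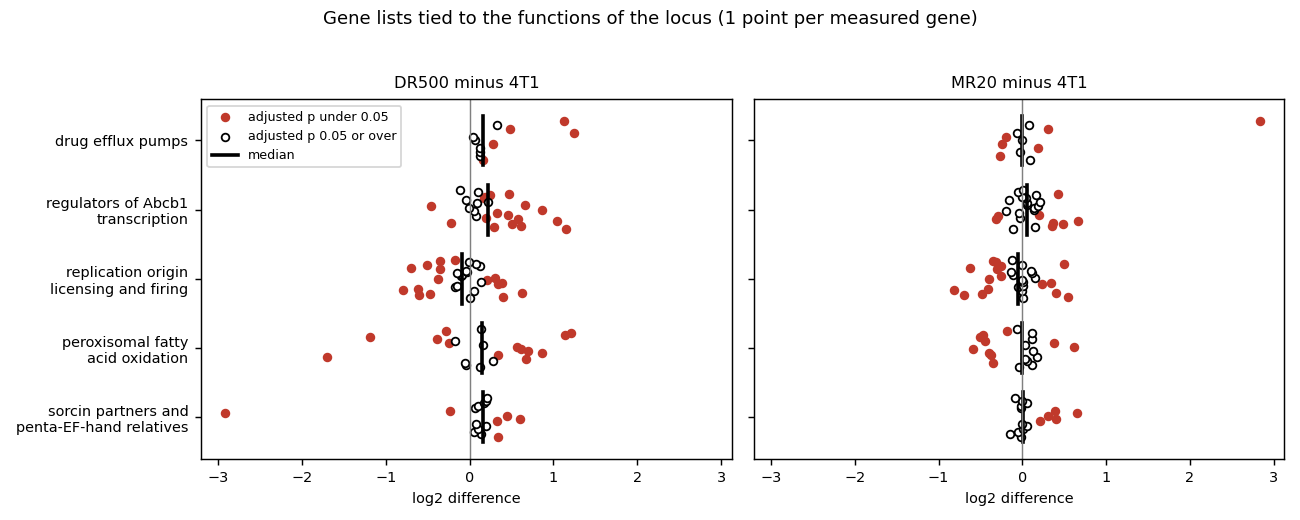
Log2 differences (x axis) of the measured genes of 5 lists (rows) in DR500 minus 4T1 and MR20 minus 4T1, with red circles past the test, white circles not past it and a black bar at the median of each list. Regulators of Abcb1 transcription have a median of 0.22 in DR500 and 0.05 in MR20, and Gca is the point at -2.92 in DR500.

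The identity of the cells was checked with marker genes. Of 9 epithelial markers, 8 lay above the median of all values in DR500 with a median level of 6.82, and all 9 did so in MR20 and in 4T1 with median levels of 11.25 and 11.01. The log2 summed level of these markers was 14.096 to 14.218 on the DR500 arrays, 15.195 to 15.205 on the MR20 arrays and 15.003 to 15.066 on the 4T1 arrays. Krt8 (13.43 in DR500 and 13.41 in 4T1) and Krt18 (12.63 and 12.99) stayed near 4T1 in DR500. The other epithelial markers were lower there, among them Cldn4 (6.55 and 12.38), Esrp1 (5.25 and 10.71), Epcam (6.82 and 11.01) and Cdh1 (7.21 and 11.05). Of 7 measured leukocyte markers, 1 was above the median of all values in DR500 and 0 in MR20 and 4T1, with a log2 summed level of 8.50 to 8.63 in DR500, 7.87 to 8.01 in MR20 and 7.95 to 8.02 in 4T1. Of 8 fibroblast markers 3, 4 and 3 were above it in DR500, MR20 and 4T1 (10.53 to 10.65, 9.37 to 9.45 and 9.51 to 9.59), and of 7 endothelial markers 1 in each line (8.28 to 8.43, 8.25 to 8.32 and 8.16 to 8.28). The higher fibroblast sum of DR500 came with Pdgfra (10.07 in DR500, 7.74 in MR20 and 8.37 in 4T1), while Postn was lowest in DR500 (4.55 in DR500, 6.86 in MR20 and 5.52 in 4T1), and the leukocyte marker above the median was Ly6g (7.14 in DR500, 4.99 in MR20 and 4.63 in 4T1). The lower epithelial values and the higher Pdgfra and Ly6g of DR500 move with its higher pump genes, and their part in the results was not tested. Each array measured the RNA of a whole well, so fewer cells expressing a marker and less RNA per cell cannot be told apart.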

How the data were processed

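The arrays were 1-colour and covered whole transcripts, and the authors applied robust multi-array normalization with affy and then limma, per the labels and the methods. The deposited values are on the log2 scale, 1 per probe set and array. Versions, array dates and whether the 9 arrays were normalized in 1 run are not given in the sources used here. Of 35556 probe sets, 21789 had 1 gene symbol, 1621 several and 12146 none listed. The 21789 gave 19938 genes, named by Entrez identifier for 21698 probe sets. Of the several probe sets of 999 genes, the brightest over 9 arrays was used. Arrays of a line correlated at 0.992 to 0.997 and array medians lay between 6.24 and 6.38. The number of arrays limits the precision.

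One model with a separate mean for each line was fitted to the 9 arrays in limma 3.58.1 (R 4.3.3, with data.table, version 1.17.8), and tables and plots were made with pandas 2.3.3 and matplotlib 3.10.9. On simulated data the fit was tested with genes changed by known amounts. The 10 genes, the gene lists and the tests were chosen with earlier results of these data known. Named genes were the 10 genes, window genes past the test with a change over 1.5-fold in any comparison, the first measured genes beyond the 10, the 3 largest changes of each list among those past the test, and the 5 most correlated genes, with Adam22, Sema3e, Nfya, Nfyb, Nfyc and single markers added after their values were seen. Alternatives were another sample choice, a filter on dim genes, repeated scaling, other probe set rules, the replicate block, trend and robust moderation, and leaving out each array. Upstream sequences are those of RefSeq (GRCm38.p6), matched by symbol for 10 of 10 genes. The methods give the array's annotation on another build, and no array coordinates are printed.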

Additional observations from a re-analysis of the deposited data

Results flagged for a closer look

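The 2 resistant lines differed from each other at many genes of the locus, either by the test of DR500 against MR20 itself or, for the pump genes, because all arrays of 1 line lay above 4T1 and all arrays of the other below it. For Abcb1b the difference DR500 minus MR20 was 2.77 and for Abcb1a 2.11, and these 2 were not tested.

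Of the other genes, Tmem243 (1.45), Crot (1.44), Sri (0.95), Abcb4 (0.62), Dbf4 (0.32) and Slc25a40 (0.22) were higher in DR500 than in MR20 and passed the test in the limma fit. For Slc25a40 both lines lay below 4T1, and for Abcb4 the MR20 and 4T1 arrays overlapped.

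Beyond the 10 genes, DR500 exceeded MR20 for Steap4 (2.16), Cdk14 (1.40), Steap2 (1.29), Elapor2 (1.28), Steap1 (1.19), Cldn12 (1.14), Cfap69 (0.92) and Gtpbp10 (0.47). For Steap4 both lines were above 4T1. DR500 was below MR20 for Sema3c (-1.97), Sema3a (-0.61) and Speer3 (-0.39), 3 dim genes on the far side of Elapor2.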

How the results depend on the processing

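Counts of the 7 neighbours past the test stayed within 1.5 times under all alternatives, at 3 to 5 in MR20 and 4 to 5 in DR500 against 4T1 and 5 to 7 in DR500 against MR20 when 1 array was left out. The count in the wider window in DR500 against 4T1 (14) was 9 over genes above the median of all values, an alternative chosen after seeing the data that counts fewer genes. For the efflux pump list in MR20, the count of 6 was 3 with all probe sets tested, 3 with the replicate block and 2 to 6 with 1 array left out (lowest without MR20 replicate 2). In DR500 against 4T1 (5) it was 3 to 5 with 1 array left out (lowest without 4T1 replicate 3), and in DR500 against MR20 (5) it was 8 with repeated quantile normalization. With the filter on dim genes, regulators in MR20 counted 14 (main 8) and origin genes in DR500 against MR20 12 (main 7), the count being 11 with trend and robust moderation. The sorcin list in DR500 against 4T1 (6) counted 12 with repeated quantile normalization, 10 with arrays centred on their median and 6 to 10 with 1 array left out (highest without DR500 replicate 3). The cause was not tested.

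Signs changed for 3 small differences that had no call: Rundc3b in DR500 against 4T1 (-0.02 without 4T1 replicate 1, -0.08 without DR500 replicate 3, -0.08 to 0.14 over all arrays left out), Abcb4 in MR20 (0.01 without 4T1 replicate 1) and Dmtf1 in DR500 against 4T1 (0.01 without DR500 replicate 1, -0.22 to 0.01 over all arrays left out). For the tested genes an unchanged value kept its direction and call. For Abcb1a, Abcb1b and Rundc3b, which have no call, it kept its direction and moved by less than the spread between arrays. Over all alternatives for the 10 genes, 463 values were unchanged in this sense, 24 lost the call, 11 gained it and 4 changed sign. The other 5, of the pump genes, moved by more than the spread between arrays and kept their sign: with repeated quantile normalization Abcb1a in MR20 was -0.80 and Abcb1b 1.37 in DR500 against 4T1 and 2.81 in DR500 against MR20, and with arrays centred on their median Abcb1b was 1.38 in DR500 and -1.41 in MR20 against 4T1. The adjusted p of Dmtf1 in MR20 ranged between 0.00771 and 0.145, and that of Slc25a40 in DR500 against MR20 between 0.00733 and 0.319.

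Replicate numbers did not pair the arrays, since the deviations of same-numbered arrays correlated at -0.08, 0.05 and -0.24 between MR20 and 4T1, 0.24, -0.03 and 0.33 between DR500 and 4T1, and -0.31, 0.15 and -0.29 between DR500 and MR20. With the replicate block 3 neighbours passed the test in MR20, 5 in DR500 against 4T1 and 6 in DR500 against MR20. Signals below the median of all values, as those of Abcb4, limit what these arrays can show.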
